A study of Homo sapiens with 6 samples.

Results

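Caspases and gasdermins are the proteases and the pore-forming proteins of inflammatory and receptor-driven cell death. The 8 genes described here are CASP1, CASP4, CASP8 and CASP10, the gasdermin genes GSDMB, GSDMD and GSDME (also called DFNA5, NCBI gene number 1687), and PYCARD, which encodes the adaptor ASC. They were found by gene symbol or gene number among the 16390 genes listed per library, and all 8 were listed and detected in every library. SW780 is a line of human bladder cancer cells. RC48 (disitamab vedotin) joins an antibody against ERBB2 to monomethyl auristatin E, which blocks microtubule assembly. The 6 libraries were made from total RNA, 3 of SW780 cells labelled Control and 3 of SW780 cells that had received RC48. The dose was 25 µg/ml, taken from the methods and not from the labels. The exposure time is not given in the sources used here, and no label states that the libraries of a group came from separate cultures, so p-values measure the spread between these libraries, which may be technical.

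CASP1 and CASP4 are inflammatory caspases. CASP1 is activated on inflammasomes, platforms in which a sensor such as NLRP3 recruits ASC, and it cleaves the interleukin precursors pro-IL-1β and pro-IL-18, while CASP4 is activated by cytosolic lipopolysaccharide. Both cleave gasdermin D, whose freed N-terminal part forms pores in the plasma membrane, and the resulting lytic death is called pyroptosis. CASP8 and CASP10 are initiator caspases recruited by FADD to death receptors, and gasdermins B and E are further members of the pore-forming family. Activity of these proteins is set largely by cleavage and assembly, which mRNA levels do not measure.

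Estimated counts summed to between 16453233 and 17988030 per library. Levels are given as TPM, which is scaled to transcript length and library size, or as CPM, which is scaled to library size by TMM and not to length. TPM of RC48 replicate 2 was computed from its counts. Across 13055 genes tested, edgeR's quasi-likelihood test called 288 at a Benjamini-Hochberg adjusted p under 0.05, which is 2.21%, and 258 of them (1.98%) were higher after RC48. The log2 ratio to Control followed transcript GC content in RC48 replicates 1 and 3 (Spearman's rho across 13018 genes 0.742 and 0.571) and not in replicate 2 (-0.0146). Values with each library's GC trend subtracted are therefore given beside the others for the 8 genes and for some of the pathway and marker genes. With that correction 910 genes (6.97%) were called, 581 higher and 329 lower, against 258 higher and 30 lower without it. The epithelial markers EPCAM, KRT8, KRT18, KRT19, GATA3 and FOXA1 were abundant in every library. KRT20, the seventh of that list, was called lower after RC48 (log2 fold change -1.55, adjusted p 0.0489, edgeR's quasi-likelihood test). In that list 3 of 7 had an unadjusted p under 0.05, against 19.1% of all genes tested. EPCAM and FOXA1 lay wholly below Control in CPM after RC48, at log2 fold changes of -0.49 and -0.44 (14.1% of all genes tested lay wholly below). KRT8, KRT19 and GATA3 went the other way, at 0.12, 0.22 and 0.10, and KRT18 was at -0.04, each with overlapping ranges. With the GC correction 0 of the 7 log2 fold changes were positive, against 6425 of the 13055 genes tested. Of 9 fibroblast and endothelial markers 8 were listed and 0 of 6 tested were called by edgeR, with 4 at an unadjusted p under 0.05, and their summed level was 219.9 to 250.3 TPM in Control and 164 to 243 TPM after RC48, nearly all of it from LUM and COL3A1, while DCN and PDGFRB had at most 2 counts. LUM went from a mean of 124.8 to 65.6 TPM and COL3A1 from 95.2 to 133.5 TPM. With the GC correction PECAM1 and VWF of that list, named after their values were seen, were called lower (adjusted p 0.0252 and 0.0228, edgeR's quasi-likelihood test), beside 6.97% of all genes called. COL1A1 and COL3A1 went the other way and were not called, at log2 fold changes of 0.74 and 0.55, and 0.42 each with the correction. In all, 3 of the 6 tested were positive, with and without the correction. The 12 leukocyte markers were at a summed 0.91 to 1.68 TPM in Control and 3.50 to 5.55 TPM after RC48, with PTPRC at no more than 1 count in any library and 5 of the 12 not listed, and edgeR called 1 of the 3 tested, higher. ITGAM, a myeloid integrin gene in that list, had 0, 5 and 0 counts in Control and 69, 54 and 65 after RC48. The part of these markers in the results below was not tested.

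None of the 8 caspase, gasdermin and adaptor genes passed the test. edgeR's quasi-likelihood test called 0 of 8, against 2.21% of all genes tested, and 3 of the 8 (CASP10, GSDMD and PYCARD) had an unadjusted p under 0.05, against 19.1% of all genes tested. DESeq2 also called 0, where it called 681 of 16366 genes. As these are bulk libraries, fewer cells with a transcript and less of it per cell cannot be told apart. The log2 fold change was positive for 6 of the 8, with a median of 0.15 beside 0.02 over all genes tested. On the CPM scale the RC48 libraries lay wholly above the Control libraries for 5 of the 8 (17.4% of all genes tested) and wholly below them for 1, CASP8 (14.1% of all genes tested). After the correction for GC content, 1 of the 8 was called, CASP10, and the ranges lay apart upward for 4 (17.1% of all genes tested) and downward for 1 (16.6% of all genes tested). An exact two-sided permutation test of 3 against 3 libraries cannot give a p under 0.1, and gives that value whenever the CPM ranges lie apart. The 6 of the 8 genes that reached it are the same genes whose uncorrected CPM ranges lay apart, so it adds nothing to those counts.

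**Figure D1:**
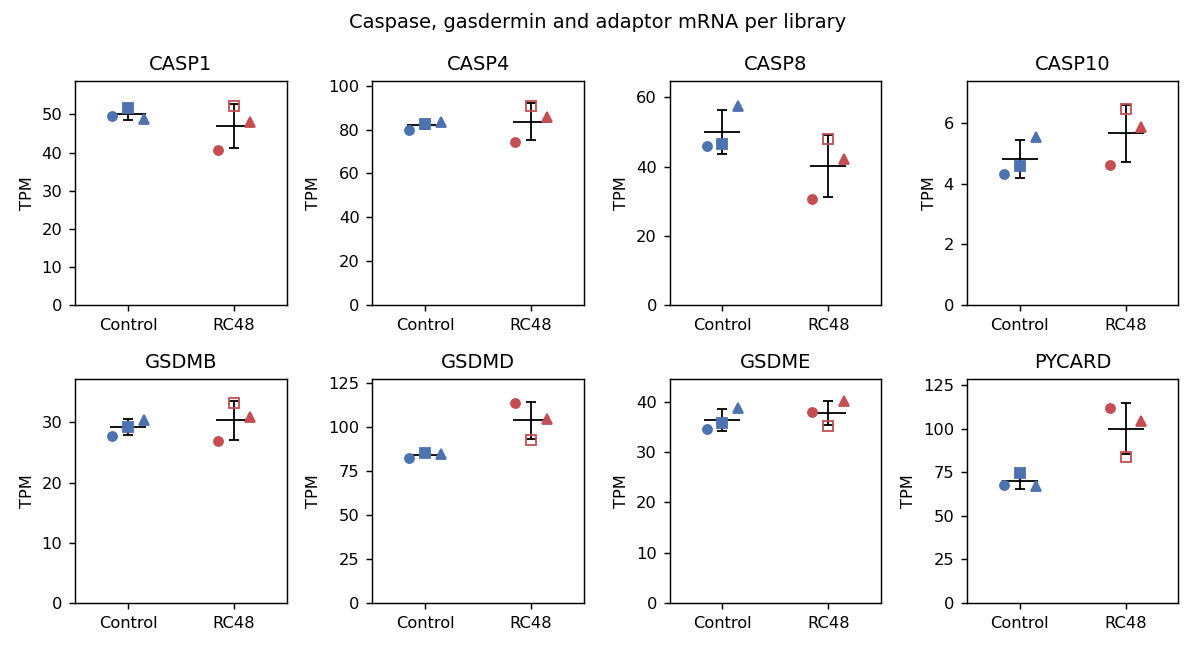
TPM of each of the 8 genes in every library, with Control in blue and RC48 in red, circles for replicate 1, squares for replicate 2 and triangles for replicate 3. The bar is the mean with the SD, the open square is the library whose TPM was computed from counts, and each axis starts at 0. Only for GSDMD and PYCARD did all 3 RC48 libraries lie above all 3 Control libraries on this scale.

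The promoters of the inflammatory caspase CASP4 and of the adaptor gene PYCARD are shown because their transcripts differ in GC content, which the log2 ratios followed in RC48 replicates 1 and 3. The capitals mark CpG dinucleotides. Both sequences are the 250 bases before the start site on the minus strand, from RefSeq on GRCh38.p14, at chr11:104968575-104968824 for CASP4 and chr16:31202761-31203010 for PYCARD.
CASP4: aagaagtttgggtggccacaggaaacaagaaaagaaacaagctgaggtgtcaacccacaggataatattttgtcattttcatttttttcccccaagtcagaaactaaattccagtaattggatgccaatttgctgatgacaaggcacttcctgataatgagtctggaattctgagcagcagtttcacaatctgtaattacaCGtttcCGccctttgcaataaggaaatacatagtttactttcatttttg
PYCARD: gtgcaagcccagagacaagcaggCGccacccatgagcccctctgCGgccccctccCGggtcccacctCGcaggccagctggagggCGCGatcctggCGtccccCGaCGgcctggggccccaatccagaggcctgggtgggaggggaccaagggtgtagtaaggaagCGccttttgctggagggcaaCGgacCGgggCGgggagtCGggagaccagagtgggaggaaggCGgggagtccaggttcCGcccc
The CASP4 promoter was 38% G and C with 2 CpG dinucleotides, and 9.51% of 35116 RefSeq promoters had a lower content. The PYCARD promoter was 71.2% G and C with 16 CpG dinucleotides, and 81.9% of promoters had a lower content. The transcripts of these 2 genes stood in the same order, at 44.7% for CASP4 and 63.4% for PYCARD. That order did not hold for GSDME, whose promoter was at 76.4% and whose transcript was at 50.1%. The CASP8 promoters were at 42.8% to 55.6%, and its transcript was at 44.2%.

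PYCARD had the largest fold change of the 8 before the correction for GC content. Its level was 67.8, 74.5 and 66.9 TPM in Control replicates 1, 2 and 3, and 112, 83.9 and 104 TPM in RC48 replicates 1, 2 and 3. The groups did not overlap, and RC48 replicate 2 was nearest to Control. Scaled by TMM, Control was at 17.3 ± 1.91 CPM and RC48 at 28.98 ± 8.41 CPM (SD, n = 3 each). This was a log2 fold change of 0.75 ± 0.22 (SE), a fold of 1.68 with a 95% interval of 1.17 to 2.40, and the adjusted p was 0.167 by edgeR's quasi-likelihood test. With the correction for GC content it was 0.41 ± 0.10 with an adjusted p of 0.053, and the RC48 and Control ranges still did not overlap. The log2 ratio to the Control mean was 1.12 in RC48 replicate 1, 0.26 in replicate 2 and 0.73 in replicate 3, the order of the libraries' GC trends. Without RC48 replicate 2, PYCARD was called at a log2 fold change of 0.94, where 28.3% of all genes tested were called, and both libraries left were those with the GC trend. With the GC correction in those 5 libraries it was called at 0.48 (16.2% of all genes tested were called). With the GC correction and without RC48 replicate 1 in place of replicate 2 it was called at 0.39 (11.9% of all genes tested were called). PYCARD was not called without RC48 replicate 3 or without each Control replicate in turn, with or without the correction. It was called under 4 of 23 alternatives. PYCARD (chr16:31201486-31202760) overlaps the antisense gene PYCARD-AS1, and as the strand used in counting is not stated, reads of both cannot be told apart.

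GSDMD encodes the pore-forming substrate of CASP1 and CASP4 and had the highest mean TPM of the 8 in both groups. Its level was 82.7, 85.5 and 84.8 TPM in Control replicates 1, 2 and 3, and 114, 92.9 and 105 TPM in RC48 replicates 1, 2 and 3. As for PYCARD, all RC48 libraries were higher than all Control libraries and replicate 2 was the lowest of them. GSDMD had a log2 fold change of 0.41 ± 0.16, a fold of 1.33 (95% interval 1.03 to 1.71), with an adjusted p of 0.233 by edgeR's quasi-likelihood test. The transcript is 63.6% G and C, and with the GC trend subtracted GSDMD had a log2 fold change of 0.10 ± 0.08 with an adjusted p of 0.442, and its groups overlapped. By limma on log2(TPM+1) with the 5 libraries that have deposited TPM, GSDMD and PYCARD were the 2 of the 8 called, at log2 fold changes of 0.37 and 0.63. That fit lacks RC48 replicate 2 and called 22.9% of all genes tested. With RC48 replicate 2 included, the same method called 0 of the 8.

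The other gasdermins, GSDMB and GSDME, were not called. GSDMB, a gasdermin cleaved by granzyme A, was at 27.8, 29.2 and 30.5 TPM in Control and 26.9, 33.2 and 30.9 TPM after RC48. On the TPM scale the groups overlapped, whereas on the CPM scale RC48 was higher in all 3 libraries, at 23.7 ± 0.53 against 21.2 ± 0.65 CPM. This was a log2 fold change of 0.16 ± 0.12 with an adjusted p of 0.414 by edgeR's quasi-likelihood test. After the correction for GC content that of GSDMB was 0.18 ± 0.08 (adjusted p 0.22, same test). GSDME, which encodes gasdermin E, was at 34.6, 35.8 and 38.8 TPM in Control and 38.0, 35.2 and 40.1 TPM after RC48. Its groups overlapped on both scales. GSDME had a log2 fold change of 0.15 with a 95% interval of -0.16 to 0.46 (adjusted p 0.484, edgeR's quasi-likelihood test), so a rise of up to 1.38 times or a fall to 0.89 times lay within the error. After the correction for GC content that of GSDME was 0.11 ± 0.09 (adjusted p 0.488, same test).

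Among the inflammatory caspases, CASP1 had nearly the same level in both groups. It was at 49.6, 51.7 and 48.8 TPM in Control and 40.7, 52.2 and 48.1 TPM after RC48, with RC48 replicate 1 the lowest of the 6 libraries. The fold change was 0.998 with a 95% interval of 0.81 to 1.23 (adjusted p 0.986, edgeR's quasi-likelihood test), and the GC-corrected log2 fold change was 0.19 ± 0.11 (adjusted p 0.32). CASP4 was at 79.8, 82.8 and 83.3 TPM in Control and 74.4, 90.6 and 85.8 TPM after RC48, so that on this scale the groups overlapped. In CPM the RC48 libraries, at 50.8 ± 0.78, lay above the Control libraries, at 45.9 ± 2.08. The log2 fold change of CASP4 was 0.14 ± 0.11 (adjusted p 0.431) and 0.30 ± 0.11 after the correction for GC content (adjusted p 0.137), both by edgeR's quasi-likelihood test. CASP1 (chr11:105025443-105036686) and CASP4 (chr11:104942866-104968574) lie 56868 bp apart. They resemble CARD16 and CARD17 or CASP5 and CASP12 in sequence, so that reads can be shared between them, and CASP5 and CASP12 were not listed.

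The initiator caspases of the death receptor pathway, CASP8 and CASP10, were not called without the correction for GC content. CASP8 was at 46.1, 46.5 and 57.5 TPM in Control and 30.6, 48.1 and 42.2 TPM after RC48. The TPM ranges overlapped, and in CPM all RC48 libraries were lower, at 54.7 ± 7.06 against 63.6 ± 3.43 CPM. CASP8 had a log2 fold change of -0.22 ± 0.14 (adjusted p 0.352), and -0.05 ± 0.07 after the correction for GC content (adjusted p 0.691), both by edgeR's quasi-likelihood test. CASP10 was the least abundant of the 8, at 4.33, 4.58 and 5.53 TPM in Control and 4.63, 6.46 and 5.87 TPM after RC48. In CPM its 3 RC48 libraries, at 15.8, 17.8 and 17.1, lay above the Control libraries, at 13.2, 12.2 and 14.5. The log2 fold change was 0.35 ± 0.14, a fold of 1.27 (95% interval 1.02 to 1.59), with an adjusted p of 0.244 by edgeR's quasi-likelihood test. After the correction for GC content it was 0.43 ± 0.10 with an adjusted p of 0.0356, the single call among the 8 under that correction, beside 6.97% of all genes tested. Under the correction the call was lost without RC48 replicate 3 and without each Control replicate in turn. CASP10 (chr2:201183141-201229406) ends 4056 bp before CASP8 (chr2:201233463-201287711), and the gene before it, CFLAR, encodes the inhibitor c-FLIP of the same receptor complex.

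**Figure D2:**
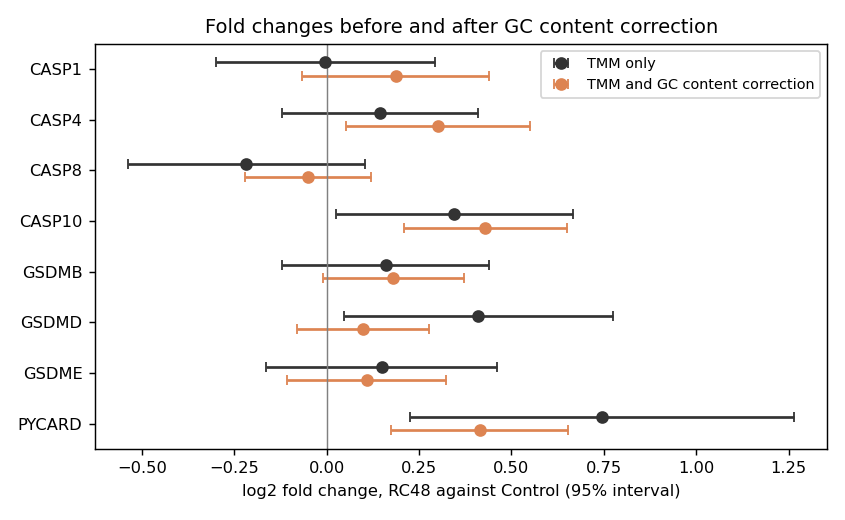
Log2 fold change of each of the 8 genes between RC48 and Control, with 95% intervals, by edgeR with TMM alone (black) and with the correction for GC content (orange). PYCARD moves from 0.75 to 0.41 and GSDMD from 0.41 to 0.10 with the correction, while CASP4 moves from 0.14 to 0.30 and CASP10 from 0.35 to 0.43.

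The order of the fold changes among the 8 genes followed transcript GC content in the libraries with a GC trend. Spearman's rho between transcript GC content and the log2 ratio to Control was 0.881 in RC48 replicate 1, 0.31 in replicate 2 and 0.881 in replicate 3 across the 8 genes, which share these libraries and are not independent replicates. After the correction it was -0.07, 0.43 and 0.24. Together with the pathway genes below (48 genes in all), rho was 0.736, 0.147 and 0.609 before and 0.02, 0.16 and 0.23 after it. In RC48 replicate 2, the library without the trend, the largest log2 ratio of the 8 was that of CASP10 (0.42), followed by PYCARD (0.26), GSDMB (0.17), CASP4 (0.13) and GSDMD (0.12).

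**Figure D3:**
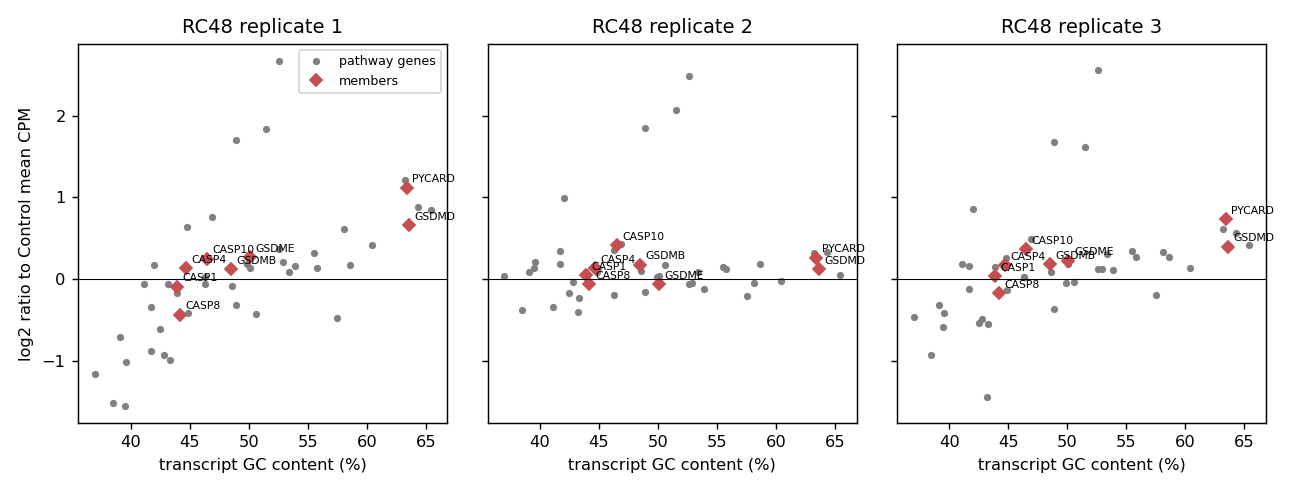
Log2 ratio of CPM in each RC48 library to the Control mean, against transcript GC content in percent, for the 8 genes (red diamonds) and the tested pathway genes (grey points). The points climb with GC content in replicates 1 and 3, and not in replicate 2.

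The order of abundance was similar in both groups. In Control it ran GSDMD (84.3 ± 1.46 TPM), CASP4 (81.9 ± 1.92), PYCARD (69.7 ± 4.15), CASP8 (50.0 ± 6.48), CASP1 (50.0 ± 1.48), GSDME (36.4 ± 2.17), GSDMB (29.2 ± 1.33) and CASP10 (4.81 ± 0.63). The ranges of GSDMD and CASP4 overlapped, although GSDMD was the higher in each of the 3 Control libraries, and the ranges of CASP8 and CASP1 overlapped with CASP8 the higher in 1 of the 3. After RC48 it ran GSDMD (103.9 ± 10.6 TPM), PYCARD (100.1 ± 14.5), CASP4 (83.6 ± 8.32), CASP1 (47.0 ± 5.81), CASP8 (40.3 ± 8.89), GSDME (37.8 ± 2.46), GSDMB (30.3 ± 3.20) and CASP10 (5.65 ± 0.93). There the ranges of 4 pairs of neighbours overlapped, GSDMD with PYCARD, PYCARD with CASP4, CASP1 with CASP8, and CASP8 with GSDME. PYCARD stood above CASP4 in RC48 replicates 1 and 3, and below it in replicate 2 and in every Control library.

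As a share of the summed TPM of the 4 caspases, CASP4 took 43.9% ± 1.04 in Control and 47.5% ± 1.82 after RC48, with no overlap between the groups. CASP8 took 26.7% ± 2.40 and 22.6% ± 2.06, without overlap, and CASP10 2.57% ± 0.23 and 3.19% ± 0.10, without overlap. The share of CASP1 overlapped, at 26.8% and 26.6%. Among the 3 gasdermins, GSDMD took 56.3% ± 1.08 in Control and 60.3% ± 3.13 after RC48, and GSDME 24.3% ± 0.80 and 21.97% ± 0.81, both without overlap, and GSDMB overlapped at 19.5% and 17.7%. These shares are not corrected for GC content, and no test was run on them. The shares of a family add up to the whole in each library, so a rise of any member lowers the others and the separations are not independent. In TPM itself CASP4, CASP8, CASP10 and GSDME overlapped between the groups. How often such shares lie apart in other gene families was not computed. For single genes in CPM, 17.4% of all genes tested lay wholly above Control and 14.1% wholly below.

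**Figure D4:**
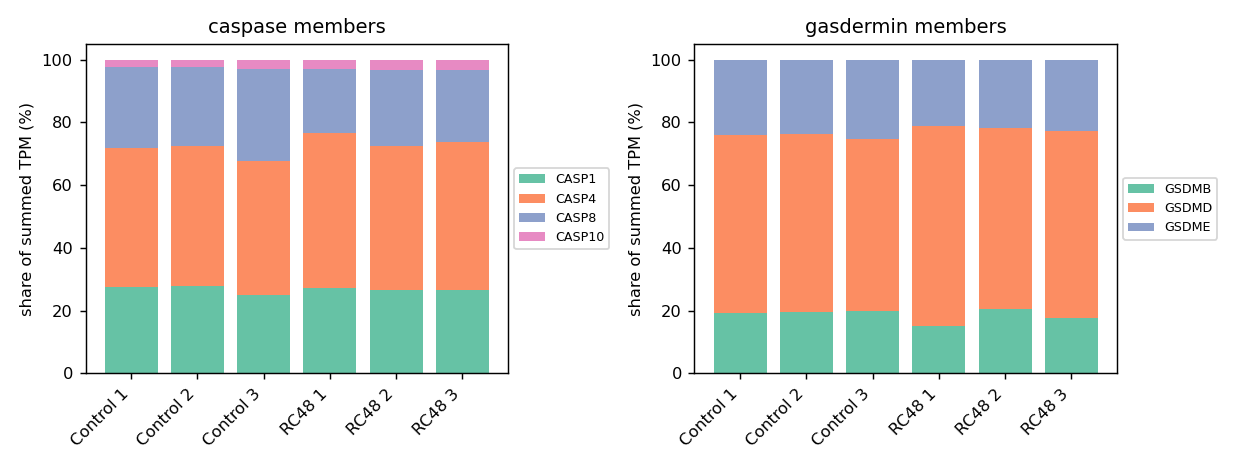
Share in percent of each gene in the summed TPM of the 4 caspases (left) and of the 3 gasdermins (right) in every library. CASP8 is below its Control share in all 3 RC48 libraries, and GSDMD is above its own.

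Of 54 other genes of the same pathways in 7 lists, 48 were listed and 40 were tested. edgeR's quasi-likelihood test called 3, all higher after RC48, beside 1.98% of all genes called in that direction. They were the inflammasome sensors NLRP3 and NLRP7 and the CASP1 substrate IL1B. NLRP7 had 10, 15 and 13 counts in Control and 77, 72 and 78 after RC48, well apart. Its log2 fold change was 2.56 ± 0.22 with an adjusted p of 0.00138 by edgeR's quasi-likelihood test. NLRP7 (chr19:54923515-54966243) overlaps the start of its paralog NLRP2 (chr19:54965284-55001138). Shared reads are therefore possible, and as the strand used in counting is not stated, reads of the overlap cannot be told apart. NLRP2 was at 202 to 233 TPM in Control and 208 to 220 TPM after RC48 with a log2 fold change of 0.10 (adjusted p 0.579, edgeR's quasi-likelihood test). NLRP3 had 4, 6 and 4 counts in Control and 16, 20 and 15 after RC48, a log2 fold change of 1.83 ± 0.33 (adjusted p 0.0349, edgeR's quasi-likelihood test), on few reads. The call was lost without any 1 of the Control libraries and without RC48 replicate 3, and by DESeq2 the adjusted p was 0.0574.

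IL1B, which encodes pro-IL-1β, was at 20.9, 22.6 and 22.2 TPM in Control and 59.9, 79.7 and 65.3 TPM after RC48. The groups were far apart, with a log2 fold change of 1.74 ± 0.13 (adjusted p 6.37e-04) and 1.75 ± 0.10 after the correction for GC content (adjusted p 3.66e-05), both by edgeR's quasi-likelihood test. IL18, the other interleukin substrate of CASP1, was at 63.8, 128 and 103 TPM after RC48 against 108, 104 and 86.3 TPM in Control. Its ranges overlapped (log2 fold change 0.08, adjusted p 0.802, edgeR's quasi-likelihood test). After the correction for GC content its log2 fold change was 0.35 (adjusted p 0.145, edgeR's quasi-likelihood test), and RC48 lay wholly above Control. Without the correction for GC content, the sensors NLRP3 and NLRP7 and the CASP1 substrate IL1B passed the test. The other 6 tested genes of the list of sensors and partners did not, nor did PYCARD, CASP1, CASP4 and GSDMD. The differences between these fold changes were not tested.

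A window of 1 of the 3 CASP8 promoters and of the IL1B promoter is shown because each holds the letters TTCNNNGAA, the core of the GAS element that STAT factors bind, in capitals with 40 bases on either side. The sequences are from RefSeq on GRCh38.p14, at chr2:201233223-201233311 on the plus strand for CASP8 and chr2:112836911-112836999 on the minus strand for IL1B.
CASP8: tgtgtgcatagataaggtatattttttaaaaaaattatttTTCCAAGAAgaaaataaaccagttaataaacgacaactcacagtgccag
IL1B: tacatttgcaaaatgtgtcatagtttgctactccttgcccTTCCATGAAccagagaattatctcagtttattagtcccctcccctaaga
The motif, whose pattern reads the same on both strands, began 200 bases before the start site of that CASP8 promoter and 180 bases before that of IL1B, and 6.57% of all 35116 RefSeq promoters of 250 bases hold it. IL1B was called higher and CASP8 was not called. A match of these letters is a description of the window only. CASP4, CASP8, GSDME and PYCARD were the 4 of the 8 genes with a promoter used here. None of their promoters held the interferon element, GAAA followed by any 2 bases and GAAA (3.02% of all promoters) or the kappaB motif (5.21%), searched on both strands, and 1 of the 3 CASP8 promoters held the AP-1 motif TGANTCA (6.57%).

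The remaining caspases were not called. Of 8, 6 were listed and 5 tested, with 0 called by edgeR and 0 at an unadjusted p under 0.05. The shares of all genes tested were 2.21% and 19.1%. CASP2, CASP6 and CASP9 had log2 fold changes of -0.27, -0.12 and 0.27, and CASP14 had at most 2 counts. After the correction for GC content those of CASP2, CASP6 and CASP9 were -0.27, 0.0063 and 0.08. Of the 3 other gasdermin family genes, GSDMC (0.12) and PJVK (-0.05) were not called, and GSDMA had 3 to 10 counts per library and was not tested.

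Upstream of CASP8 and CASP10, 0 of the 9 tested genes of the receptor platform were called by edgeR, and 4 had an unadjusted p under 0.05. Over all genes tested, 2.21% were called and 19.1% had an unadjusted p under 0.05, shares that also stand beside the lists below. CFLAR, named after its values were seen, was at 26.0, 26.6 and 31.9 TPM in Control and 39.0, 38.4 and 42.7 TPM after RC48, with no overlap, at a log2 fold change of 0.57 ± 0.13 (adjusted p 0.0886, edgeR's quasi-likelihood test). FADD and DEDD2, the most abundant 2 of that list, had log2 fold changes of 0.21 and 0.48, and of -0.03 and 0.15 after the correction for GC content. The inhibitor list, with DPP9 (0.19) and CARD16 (0.35), and the apoptosome list, with DIABLO (0.12) and CYCS (-0.56), held 0 calls each, at 0 of 4 and 1 of 5 genes with an unadjusted p under 0.05. NEK7, a partner of NLRP3, was at -0.51 ± 0.36 with overlapping groups (adjusted p 0.383, edgeR's quasi-likelihood test). Its log2 ratios to the Control mean were -1.55, 0.13 and -0.59 in RC48 replicates 1, 2 and 3. After the correction for GC content NEK7 was at -0.24. Among the outputs, PARP1, a caspase substrate, was at -0.29, and NINJ1, which ruptures the membrane after gasdermin pores form, at 0.76 (adjusted p 0.161, edgeR's quasi-likelihood test). After the correction for GC content PARP1 was at -0.49 and was not called.

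After the correction for GC content 7 of the 40 pathway genes were called, 6 of them higher, beside 6.97% of all genes. Of the 4 added, AIM2, CFLAR and CASP8AP2 were named after their values were seen. AIM2, the sensor of cytosolic DNA that recruits ASC, was at 9.64, 11.2 and 12.0 TPM in Control and 10.2, 21.9 and 18.4 TPM after RC48, with RC48 replicate 1 inside the Control range. Its GC-corrected log2 fold change was 0.96 ± 0.13 (adjusted p 0.00394, edgeR's quasi-likelihood test), and its corrected ranges did not overlap. CFLAR was called at 0.65 (adjusted p 0.0261), NINJ1 at 0.42 (adjusted p 0.0273) and CASP8AP2, a CASP8-binding protein gene, lower at -0.51 (adjusted p 0.0348), in the same edgeR fit. Under the correction these 3 calls were lost without any 1 of the Control libraries and without RC48 replicate 3.

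**Figure D5:**
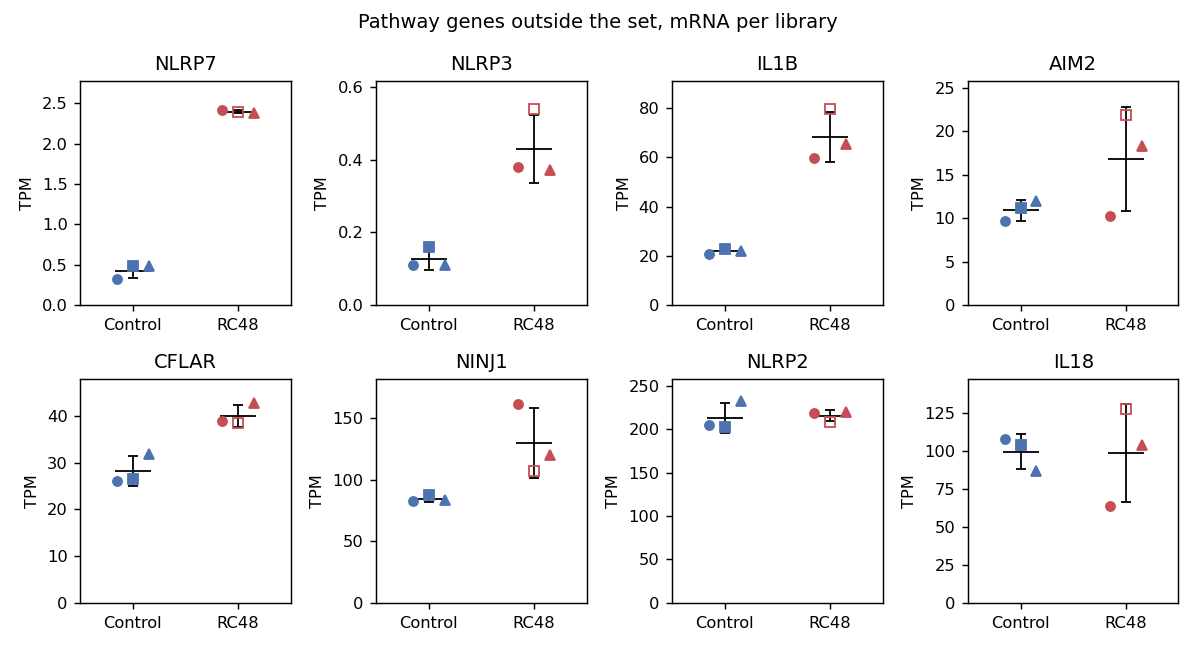
TPM in every library of 8 pathway genes outside the set of caspases and gasdermins, drawn as for the 8 genes above, with each axis starting at 0. NLRP7, NLRP3 and IL1B lie apart between Control and RC48, whereas NLRP2 and IL18 overlap.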

How the data were processed

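The authors sequenced total RNA of 3 Control and 3 RC48 libraries of SW780. Reads were filtered with SOAPnuke, and per the labels mapped with Bowtie2 and counted with RSEM on hg38; versions and annotation are not given in the sources used here. The deposited estimated counts are RSEM's, without normalization. The authors deposited TPM for 5 libraries; that of RC48 replicate 2 was derived by dividing its counts by effective lengths inferred from the other libraries (checked on RC48 replicate 3, median absolute log2 difference 0.0369 over 11982 genes).

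The estimates were rounded, low genes removed by filterByExpr, libraries scaled by TMM, and groups compared with edgeR 4.0.16 (R 4.3.3) by its quasi-likelihood test, with p-values adjusted by Benjamini-Hochberg over 13055 genes at a threshold of 0.05. The GC content correction subtracted each library's loess trend (span 0.3) on transcript GC content, from GENCODE transcripts matched for 99.6% of genes, as an offset. The exact permutation test used log2(CPM + 0.5). Alternatives were DESeq2 1.42.0, limma 3.58.1 on log2(TPM+1) and log2(TPM+0.1), other scalings and filters, a replicate block, and each library left out. The procedure was tested on simulated data. Gene positions and promoters came from RefSeq (GRCh38.p14), in which all 8 genes were matched, and were used for description. Figures were drawn with matplotlib 3.10.9 in Python 3.11.15.

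The 8 genes and the pathway and marker lists were chosen with earlier results of these data known. Named are the 8 genes, other caspases and gasdermins, pathway genes that were called, and the 2 most abundant genes of each remaining list; no other gene was named by its likeness to a called gene, as none of the 8 was called. Some genes of the lists are counted but not reported here.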

Additional observations from a re-analysis of the deposited data

How the results depend on the processing

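Among the 8 caspase, gasdermin and adaptor genes, 0 were called in the fit reported first, 1 with the GC content correction, 2 by limma on log2(TPM+1) with 5 libraries, and 0 by DESeq2, by limma with 6 libraries, with other scalings and with other filters. Leaving out 1 library at a time, with or without the GC content correction, gave 0 to 3. The 3 were with the correction and without RC48 replicate 2, where 16.2% of all genes tested were called. The 3 called pathway genes became 6 by DESeq2, 13 by limma with 5 libraries, 7 with the GC content correction and 2 to 16 with 1 library left out, with 16 without RC48 replicate 2 and 8 without RC48 replicate 1. Over all genes, 288 calls of 13055 became 681 of 16366 by DESeq2 and 910 of 13055 with the GC content correction. They became 2836 of 12363 by limma with 5 libraries, 897 of 13147 without RC48 replicate 1 and 3726 of 13185 without RC48 replicate 2. Whether the counts among the 8 genes and the pathway genes rose beyond these was not tested. NLRP7 and IL1B were called under all 23 alternatives, and NLRP3 could not be tested by limma or at a minimum of 10 counts per library.

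Deviations of same-numbered libraries from their group means had correlations of 0.002, -0.13 and 0.005, and those of other pairs -0.112 to 0.131. These values show no pairing by number and cannot exclude it, as the GC trend differs between the RC48 libraries. A replicate block gave 331 calls over all genes, 0 among the 8 genes and 3 among the pathway genes, and together with the GC content correction 683, 0 and 5, so that the GC-corrected calls of CASP10, NINJ1 and CASP8AP2 were lost with the block.

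Some log2 fold changes of genes that were not called changed sign, and the cause was not tested. With the GC content correction they became 0.19 for CASP1, 0.0063 for CASP6, 0.27 for PJVK, -0.0378 for NLRP2, -0.10 for DPP9 and -0.0281 for FADD. With the replicate block added they were 0.19, 0.0043, 0.26, -0.0379, -0.11 and -0.0421. By limma with 5 libraries they became -0.0352 for CASP4, -0.0152 for GSDMB and -0.074 for GSDMC. With 1 library left out, with or without the GC content correction, the ranges were -0.0665 to 0.26 for CASP1, -0.27 to 0.0488 for CASP6, -0.0169 to 0.29 for GSDMC, -0.21 to 0.54 for PJVK, -0.0861 to 0.17 for NLRP2, -0.15 to 0.28 for DPP9 and -0.15 to 0.28 for FADD. With 3 libraries per group, a log2 fold change of a member was known to within about its 95% interval, of which that of PYCARD (0.23 to 1.27) was the widest, and NLRP3 rests on 4 to 20 counts per library.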
